A study of Mus musculus with 24 samples.

Results

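The Roundabout receptor genes Robo1, Robo2, Robo3 and Robo4 and the genes of their Slit ligands, Slit1, Slit2 and Slit3, were examined in the mouse hippocampus. The 7 members are the rows of the count matrix whose Ensembl identifier maps to these symbols, among 55471 genes in all, and each of them was expressed at a level that passed the expression filter in every comparison. The matrix holds 12 female mice, 3 in each of 4 groups. Each mouse is 1 library, and the sample titles list 2 sequencing runs for it. All mice were on the C57BL/6 background, were 3 to 6 months old and had received tamoxifen. CBP-ifKOs carry floxed Crebbp, the gene of the lysine acetyltransferase CBP, and the Camk2a-creERT2 transgene, which recombines floxed alleles in excitatory neurons of the forebrain after tamoxifen. Control mice were littermates without the Cre transgene. Both genotypes were kept either in a standard cage (SC) or in an enriched environment (EE), which offered more space, more company, running wheels and changing objects. The recombined allele still encodes a truncated CBP without acetyltransferase activity, and interneurons, glia and vessel cells of the sampled tissue keep intact CBP. The design asks how loss of CBP and housing, alone and together, change hippocampal transcription.

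Slits are large secreted proteins, and their binding to Robo1 or Robo2 on a growing axon or dendrite repels it through proteins that act on the actin cytoskeleton. Heparan sulfate chains on cell surface proteoglycans take part in this binding. Robo3 is the divergent member of the family. In mammals it does not bind Slits with high affinity, it answers to the secreted protein NELL2, it works with the netrin receptor DCC, and it is best known for letting commissural axons cross the midline of the hindbrain and spinal cord. Robo4 is found mainly on blood vessel endothelium, where it stabilizes the vessel wall.

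Control libraries held 26874015 to 27971488 counts and CBP-ifKO libraries 28582210 to 37448388. All counts in CBP-ifKO libraries were even, whereas 54.0% to 55.1% of the counts above 0 in the control libraries were odd. Whether each CBP-ifKO read was counted more than once could not be told from the sources used here. Nor could it be told whether 2 different runs were merged for these mice. Halved, these libraries would total 14291105 to 18724194 counts, fewer than the controls, and 23843 to 25225 genes were detected in them against 25981 to 26608 in control libraries. This difference in depth coincides with genotype, so the members' tests were also run with the CBP-ifKO counts halved. As a check of the genotype labels, Crebbp had 75.5 ± 5.78 CPM (counts scaled to the TMM-normalized library total, SD, n = 3) in control SC mice and 50.7 ± 0.796 CPM in CBP-ifKO SC mice, and 73.0 ± 3.80 CPM against 46.5 ± 1.89 CPM under EE. The library of control EE replicate 1 stood apart by its choroid plexus transcripts. Ttr, the transthyretin gene, was at 1129 CPM there and between 4.06 and 32.3 CPM in the other 11 libraries. The main EE results of the members are therefore also given without this library. In these bulk samples, fewer cells of a type and less RNA per cell cannot be told apart.

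Robo3 was the member whose level differed most between the groups. It fell in CBP-ifKOs, where it fell by 26.3% averaged over both housings and fell by 34.1% under EE. In control mice its mean level was 38.7% higher under EE than in SC, with no overlap between the groups, but this difference did not pass the threshold after adjustment over all genes. In these fits of all mice, with edgeR's quasi-likelihood test, the other 6 members passed the threshold in no comparison. The study named Robo3 among genes that gained transcripts and H3K27 acetylation, a histone mark, under EE in controls and not in CBP-ifKOs. Its transcripts were measured in these same mice, so the pattern of Robo3 here is a description of those mice and not independent evidence. Acetylation was not examined here.

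Robo3 (ENSMUSG00000032128) lies on the minus strand of chromosome 9, from 37415669 to 37433246 of GRCm38, in 23 merged exon blocks. Its 3′ end faces that of Robo4, from which it is separated by 553 bases. Because Robo3 was the member that changed, the stretch upstream of its annotated start is shown, taken from the RefSeq promoter window of GRCm38.p6 at chr9:37433247-37433425 on the minus strand, with CG dinucleotides in capitals.
Robo3 upstream: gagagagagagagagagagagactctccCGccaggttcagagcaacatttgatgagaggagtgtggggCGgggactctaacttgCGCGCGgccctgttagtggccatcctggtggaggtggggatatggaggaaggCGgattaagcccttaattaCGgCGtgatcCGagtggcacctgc
These 179 bases hold 9 CG dinucleotides. Over the whole window of 300 bases, which runs past the start, the GC content was 63.3% and the number of CG dinucleotides 17, against medians of 52.7% and 7 in all 32851 promoter windows. CBP is a coactivator of the factor CREB, which binds the cAMP response element TGACGTCA. Windows were found for 6 of the 7 members, 8 windows in all, and none of the 8 held this element or its shorter form TGACG on either strand. Of all promoter windows, 1.79% held the full element and 20.8% the short form, which overlaps the full one. The absence of these letters from a window of this size says nothing about where CREB or CBP bind.

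Slit2 and Slit3 each carry a miR-218 gene in an intron, on the same strand as the host gene, at chromosome 5 from 48223942 to 48224051 and at chromosome 11 from 35616816 to 35616925. The mature microRNA, known as a repressor of Robo1 and Robo2, thus comes from the ligand genes and matches sequence in the receptor genes. It is shown as RefSeq gives it, with the seed, bases 2 to 8, in capitals.
mmu-miR-218-5p: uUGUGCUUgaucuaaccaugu
The seed pairs with AAGCACA in a transcript. The longest annotated 3′ UTR of Robo1 and of Robo3 held 1 such match each, that of Robo2 and of Slit2 held 2 each, and those of Robo4, Slit1 and Slit3 held none. The matches of the receptors are shown with their flanking bases, the match in capitals and its position counted from the stop codon.
Robo1 site at base 986: ttggttttaaAAGCACAatcac
Robo2 site at base 461: atttggtgatAAGCACAaatct
Robo2 site at base 2787: cggcagacccAAGCACAgcttc
Robo3 site at base 647: tgactcactgAAGCACActgtc
Of 21103 genes with an annotated 3′ UTR, 14.8% held at least 1 match. Among genes whose 3′ UTR was 0.8 to 1.25 times as long, the share with a match was 18.4% for the length of Robo1, 37.7% for Robo2, 6.34% for Robo3 and 33.7% for Slit2, so a match is common at the lengths of Robo2 and Slit2. The hairpins themselves had between 0 and 4 counts per library in Slit2's intron and 0 in Slit3's intron, as libraries of long RNA do not measure mature microRNAs.

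The 7 genes spanned a wide range of levels per kilobase of exon, the scale used here to compare genes. This length counts all annotated exons merged, from 5302 bases for Robo4 to 25433 for Slit2, and can exceed that of a transcript. The order given here therefore depends on the annotation. Without division by length, group means were 50.5 to 59.4 CPM for Robo1, 46.7 to 58.9 for Slit2 and 27.5 to 46.1 for Robo3. Slit1 was by far the most abundant, at 45.7 ± 4.21 CPM per kilobase (SD over the 12 mice), above 95.3% of the tested genes, and its lowest mouse, at 38.0 CPM per kilobase, was above the highest of every other member. Slit3 followed at 7.75 ± 1.45, Robo2 at 6.17 ± 0.622, Robo3 at 5.00 ± 1.19 and Robo1 at 3.40 ± 0.373 CPM per kilobase. Slit2, at 2.09 ± 0.382, and Robo4, at 1.51 ± 0.215 CPM per kilobase, were the lowest. Neighbours in this order mostly overlapped across mice. Slit3 was above Robo2 in 11 of 12 mice, Robo2 above Robo3 in 10 of 12 and Slit2 above Robo4 in 11 of 12, whereas Robo3 was above Robo1 in 12 of 12 mice within each mouse although their ranges overlapped. The ranges of Slit1 and Slit3, and of Robo1 and Slit2, did not overlap. The position of Robo3 depended on the group. In control EE mice its mean of 6.73 ± 0.453 CPM per kilobase (SD, n = 3) was next to the 6.60 ± 0.848 of Robo2, whereas in CBP-ifKO SC mice it was at 4.02 ± 0.509 against 6.19 ± 0.140 for Robo2. Raw counts in control mice ran from 172 to 267 for Robo4, the gene with the fewest, and from 861 to 1280 for Robo3. In CBP-ifKOs they ran from 160 to 318 and from 760 to 1314 as deposited, and the number of reads behind them would be smaller by the same factor if reads had been counted more than once.

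**Figure D1:**
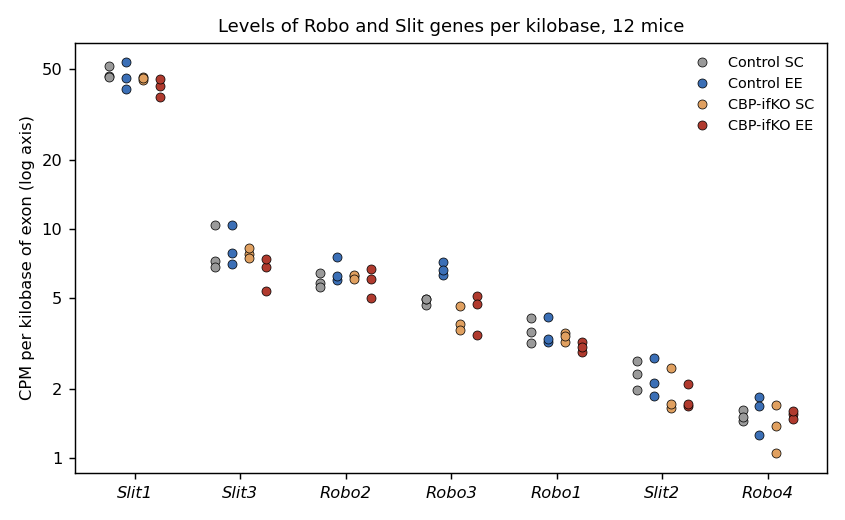
Levels of the 7 genes in CPM per kilobase of exon on a log axis, ordered by their mean, with 1 point per mouse and a color per group. Slit1 lies apart from the rest, with every mouse at or above 38.0, and Robo3 is the member whose control EE mice, from 6.32 to 7.22, stand above the other 9 mice.

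Robo3 in control SC mice was at 31.96, 34.0 and 33.7 CPM. In control EE mice it was at 43.3, 49.4 and 45.6 CPM. In CBP-ifKO SC mice it was at 31.4, 26.3 and 24.8 CPM, and in CBP-ifKO EE mice at 23.5, 35.1 and 32.1 CPM. All 3 control EE mice were thus above all 9 mice of the other groups. CBP-ifKO SC mice were below control SC mice by a narrow margin, 31.4 against 31.96 CPM at the nearest pair, and the CBP-ifKO EE mice spanned the levels of both SC groups.

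Between genotypes, 1 of the 7 members passed the threshold under EE, where 4.57% of 17625 genes tested did. That member was Robo3, whose log2 fold change was -0.60 (standard error 0.12, 95% interval -0.87 to -0.33, adjusted p = 0.0183 in the edgeR test), and the groups did not overlap, as in 25.3% of genes. The call was lost without control EE replicate 3 and without CBP-ifKO EE replicate 3, with adjusted p-values of 0.0672 and 0.0676 and log2 fold changes of -0.61 and -0.65. The number of genes called over all genes also moved with single mice, from 805 to between 285 and 1016 under EE and from 968 to between 399 and 1908 in SC. Without control EE replicate 1, the library with the choroid plexus transcripts, the log2 fold change was -0.65 (adjusted p = 0.0158 by edgeR). In SC mice no member passed, where 5.52% of 17532 genes did. Robo3 had an unadjusted p under the threshold there, the only member of which this held beside 20.5% of all genes, and DESeq2 called none of the members. The log2 fold change of Robo3 in SC mice was -0.27 (standard error 0.09, 95% interval -0.47 to -0.08, adjusted p = 0.0999), and groups that did not overlap, as here, were found for 25.9% of genes. Without CBP-ifKO SC replicate 1, the mouse nearest to the controls, it was -0.38 with an adjusted p of 0.0361, whereas leaving out each of the other 5 mice gave adjusted p-values from 0.115 to 0.292, the last with -0.20 without CBP-ifKO SC replicate 3. Averaged over both housings in the fit of all 12 mice, the log2 fold change of Robo3 was -0.44 (standard error 0.08, adjusted p = 0.00195 by edgeR), again as the only member that passed, against 16.9% of 18251 genes. Without CBP-ifKO SC replicate 3, 2 members passed, Robo3 and Slit2. Exact two-sided permutation tests of the log2 CPM of Robo3 gave p = 0.1 in SC mice and p = 0.1 in EE mice, which is the smallest value that 3 against 3 mice allow.

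**Figure D2:**
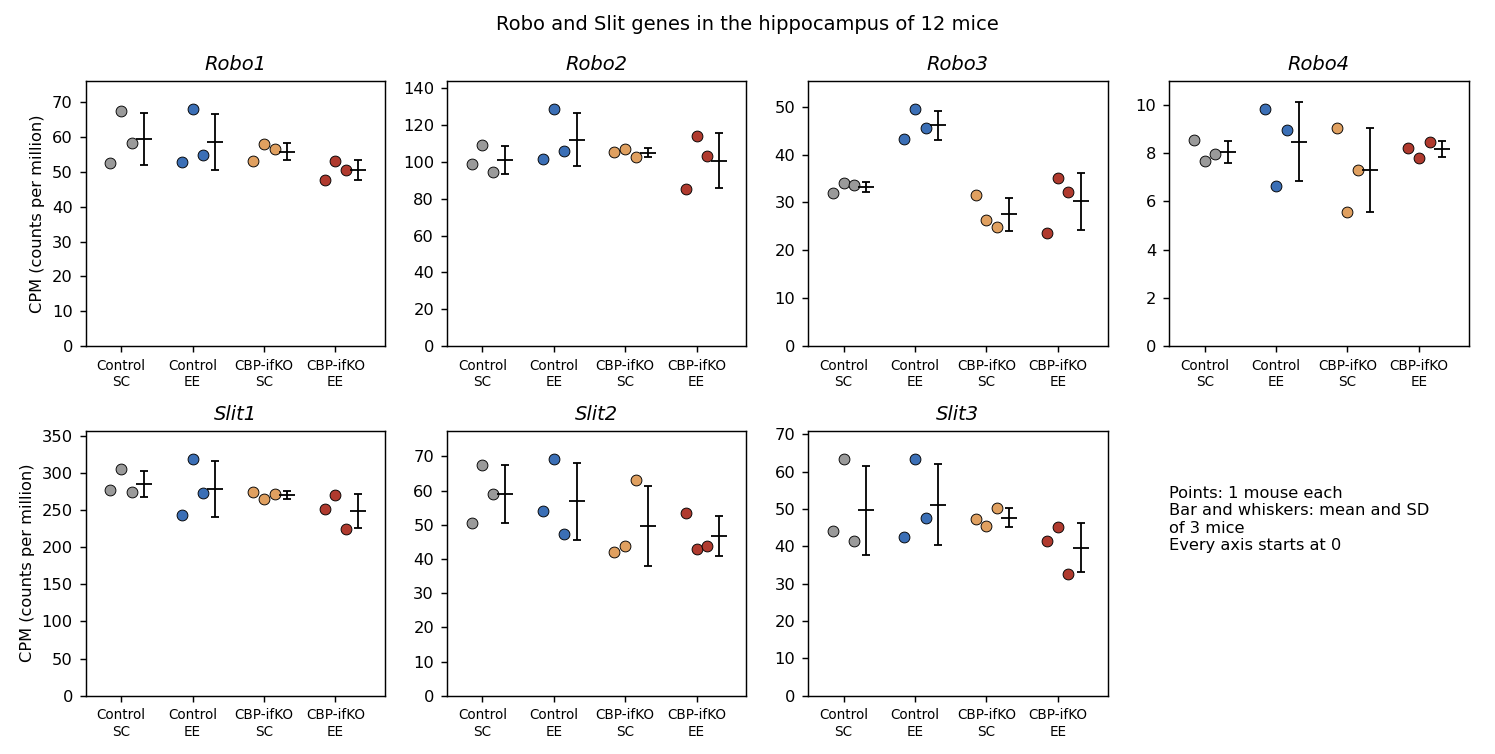
CPM of each gene by group, with 1 point per mouse and, to its right, the mean and SD of the 3 mice, on axes that start at 0. Robo3 is the panel in which the control EE mice, from 43.3 to 49.4 CPM, stand clear of the other groups, whereas the other 6 genes overlap in each genotype and housing comparison except Slit3 between housings in CBP-ifKOs.

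The housing change of Robo3 was examined in the fit of all 12 mice. In control mice its log2 fold change under EE was 0.47 (standard error 0.12, 95% interval 0.22 to 0.72), with an unadjusted p of 0.00117 and an adjusted p of 0.670 by edgeR. No gene passed the threshold in this comparison (0.0% of 18251 tested), 768 genes had an unadjusted p under 0.05 (4.21%), and DESeq2 called 15 genes. The adjusted p of Robo3 was 0.0759 by DESeq2, and over all alternatives it lay between 4.17e-06, without a filter on low counts, and 1.0. The exact two-sided permutation test gave p = 0.1, the smallest possible for 3 against 3 mice. Without control EE replicate 1 the log2 fold change was 0.52 (adjusted p = 0.554 by edgeR). The groups did not overlap, which held for 9.11% of the genes tested in this comparison. In CBP-ifKOs the log2 fold change of Robo3 under EE was 0.13 (standard error 0.12, 95% interval -0.12 to 0.39, adjusted p = 0.780 by edgeR), in a comparison in which 0.011% of genes passed and 8.59%, no member among them, had an unadjusted p under 0.05. The CBP-ifKO EE mouse at 23.5 CPM was the lowest of all 12 mice, and leaving it out gave 0.29. Leaving out CBP-ifKO SC replicate 1 gave 0.24, CBP-ifKO SC replicate 3 0.064, CBP-ifKO EE replicate 3 0.091 and CBP-ifKO EE replicate 2 0.014, so the size of this change rested on single mice.

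The difference between these housing changes, the interaction, was -0.34 on the log2 scale for Robo3 (standard error 0.17, 95% interval -0.69 to 0.02), with an unadjusted p of 0.0630 and an adjusted p of 0.9998 by edgeR. The exact permutation test over the 400 exchanges of housing within genotype gave p = 0.23, where the smallest possible value was 0.005. None of the 7 members and no other gene passed the threshold for the interaction (0.0% of 18251 tested) with edgeR or with DESeq2, and 574 genes (3.15%), none of them a member, had an unadjusted p under 0.05. It was therefore not shown that the housing change of Robo3 differed between the genotypes. Without CBP-ifKO EE replicate 1 the interaction of Robo3 was -0.18, without CBP-ifKO EE replicate 2 it was -0.46, and without control EE replicate 1 it was -0.38. Averaged over genotypes, the housing change of Robo3 was 0.30 (standard error 0.08, adjusted p = 0.227 by edgeR), in a comparison in which 0.164% of genes passed. It passed in DESeq2, with an adjusted p of 0.0438, and in edgeR without CBP-ifKO EE replicate 1, with an adjusted p of 0.0288. It was 0.33 without control EE replicate 1 (adjusted p = 0.271 by edgeR). The joint test of housing and interaction, the closest here to the likelihood ratio test the study describes, gave an adjusted p of 0.429 with edgeR, where 0.0712% of genes passed, and 0.0499 with DESeq2.

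Several markers of excitatory neurons were also lower in CBP-ifKOs. The summed level of 5 CA1 pyramidal markers was between 726 and 835 CPM in the 6 control mice and between 547 and 570 CPM in the 6 CBP-ifKOs, and 4 of the 5, Fibcd1, Man1a, Mpped1 and Wfs1, fell in both housings, beside 5.52% of all genes that passed in SC and 4.57% under EE. The summed level of 5 dentate granule markers was between 227 and 267 CPM in control mice and between 147 and 200 CPM in CBP-ifKOs, and that of 5 CA2 markers between 184 and 204 CPM against between 111 and 129 CPM, with 2 of the 5 CA2 markers, Pcp4 and Rgs14, lower in both housings beside the same shares of all genes. The 5 CA3 markers summed to between 156 and 169 CPM in control SC and between 137 and 148 CPM in CBP-ifKO SC mice, and under EE, where none of them passed, to between 158 and 179 CPM against between 151 and 165 CPM. Markers of other cells also passed as lower averaged over housing, where 16.9% of all genes passed in either direction, with 2 of 5 tested for the medial habenula (Chrna3 and Nwd2), 2 of 5 for the thalamus (Plekhg1 and Prkcd), 2 of 4 tested for Cajal-Retzius cells, 2 of 6 for astrocytes, 2 of 5 for microglia and 1 of 8 for the choroid plexus (Ttr, which also fell in SC), while 1 interneuron marker fell and 1 rose of 7 and none of 5 oligodendrocyte markers passed. The habenular sum was between 44.8 and 59.0 CPM in control mice and between 38.4 and 44.8 CPM in CBP-ifKOs, and the thalamic sum between 55.03 and 76.6 CPM against between 49.0 and 59.5 CPM. The choroid plexus sum was between 50.9 and 56.9 CPM in control SC and between 37.42 and 42.0 CPM in CBP-ifKO SC mice. Under EE the lowest, median and highest sums were 37.8, 51.3 and 1272 CPM in control mice and 38.3, 56.6 and 66.5 CPM in CBP-ifKOs, so these groups overlapped, and the averaged change of Ttr includes the control library at 1129 CPM. None of the markers in these sums was at 0 in any group. Between housings in control mice, where no gene at all passed, the medians of the log2 fold changes of the CA1, CA2 and dentate markers were 0.11, 0.12 and -0.0097. Those of the CA3, endothelial and astrocyte markers were -0.096, -0.14 and -0.11. For the choroid plexus markers the median was 2.29, with control EE replicate 1 included, and for the remaining lists it was between -0.057 and 0.069. The part of any of these cell types in the genotype and housing changes of Robo3 was not tested.

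Robo1 and Robo2, the receptors that bind Slits, lie next to each other on chromosome 16 on opposite strands, from 72308306 to 73046095 and from 73891839 to 74411825. Robo1 was at 52.6, 67.4 and 58.3 CPM in control SC mice and at 52.9, 67.9 and 54.9 CPM in control EE mice. In CBP-ifKOs it was at 53.1, 57.9 and 56.4 CPM in SC and at 47.7, 53.2 and 50.6 CPM under EE. Each control group had 1 high mouse, and no CBP-ifKO was above 57.9 CPM. Its log2 fold change between genotypes was -0.20 under EE (95% interval -0.40 to -0.01, adjusted p = 0.241 by edgeR) and -0.092 in SC (95% interval -0.27 to 0.09). The housing change of Robo1 in control mice was -0.022, with a 95% interval from -0.23 to 0.18. The genotype change under EE was -0.27 and the housing change 0.046 without control EE replicate 1.

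Robo2 was at 98.7, 109 and 94.7 CPM in control SC mice and at 102, 129 and 106 CPM in control EE mice. CBP-ifKOs had 106, 107 and 102 CPM in SC and 85.1, 114 and 103 CPM under EE. These groups overlapped in every comparison. The housing change of Robo2 in control mice was 0.15 (95% interval -0.06 to 0.36, adjusted p = 0.999 by edgeR), and its genotype changes were 0.058 in SC and -0.14 under EE, with intervals that include 0. Without control EE replicate 1 they were 0.22 for housing in control mice and -0.21 between genotypes under EE.

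Robo4, the endothelial receptor, lies beside Robo3 on the plus strand of chromosome 9, from 37401897 to 37415115. Control SC mice had 8.54, 7.67 and 7.95 CPM and control EE mice 9.81, 6.64 and 8.96 CPM. CBP-ifKOs were at 9.03, 5.54 and 7.31 CPM in SC and at 8.22, 7.79 and 8.46 CPM under EE. All 4 groups overlapped. Its log2 fold change was -0.14 between genotypes in SC (95% interval -0.49 to 0.21), -0.047 under EE (95% interval -0.37 to 0.27) and 0.074 between housings in control mice (95% interval -0.27 to 0.42). Without control EE replicate 1 the change under EE was 0.070 and that between housings -0.044. The summed level of 8 endothelial markers was between 200 and 204 CPM in control SC mice, between 170 and 197 CPM in control EE mice and between 168 and 184 CPM in CBP-ifKOs. Of the 8 markers 1, Kdr, a receptor of vascular endothelial growth factor, fell in CBP-ifKOs in SC, where 5.52% of all genes passed, and averaged over housing, where 16.9% did, and none was at 0.

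The ligand genes are on separate chromosomes. Slit1 lies on chromosome 19 from 41600257 to 41743665, Slit2 on chromosome 5 from 47983138 to 48307733 and Slit3 on chromosome 11 from 35121224 to 35708507. Slit1 was at 277, 305 and 274 CPM in control SC mice and at 243, 318 and 272 CPM in control EE mice. The CBP-ifKOs were at 274, 265 and 271 CPM in SC and at 251, 270 and 225 CPM under EE. These ranges overlapped in every comparison, and the genotype change averaged over housing was -0.12 (95% interval -0.25 to 0.01, adjusted p = 0.196 by edgeR). Under EE the genotype change was -0.15. Without control EE replicate 1 the averaged change was -0.16 (adjusted p = 0.0585 by edgeR) and that under EE -0.24 (adjusted p = 0.182).

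Slit2 was at 50.4, 67.5 and 58.9 CPM in control SC mice and at 54.0, 69.2 and 47.3 CPM in control EE mice. The CBP-ifKO levels were 42.1, 43.8 and 63.1 CPM in SC and 53.5, 43.0 and 43.7 CPM under EE. In each CBP-ifKO group 1 mouse stood within the range of the controls and the other mice below it. The log2 fold change of Slit2 averaged over housing was -0.26 (standard error 0.11, adjusted p = 0.124 by edgeR), the largest among the members after Robo3, and it was -0.37 with an adjusted p of 0.0222 without CBP-ifKO SC replicate 3, the mouse at 63.1 CPM. Without control EE replicate 1 the averaged change was -0.28 (adjusted p = 0.135 by edgeR). The genotype change under EE was -0.27, and -0.31 without that library.

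Slit3 was at 44.0, 63.3 and 41.4 CPM in control SC mice and at 42.5, 63.2 and 47.5 CPM in control EE mice. In CBP-ifKOs it was at 47.3, 45.4 and 50.3 CPM in SC and at 41.4, 45.1 and 32.5 CPM under EE. The CBP-ifKO EE mice were all below the CBP-ifKO SC mice, which held for 15.9% of genes in either direction, with a log2 fold change of -0.27 (95% interval -0.60 to 0.07, adjusted p = 0.668 by edgeR). Between genotypes under EE the log2 fold change of Slit3 was -0.35 (standard error 0.14, adjusted p = 0.199 by edgeR), and -0.47 (adjusted p = 0.0752) without control EE replicate 1. Across the 12 libraries, Slit3 and Slit1 were the pair of members most alike (Pearson r = 0.922, and 0.918 after removal of the group means), a description over points that share library scaling and the make-up of the tissue.

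**Figure D3:**
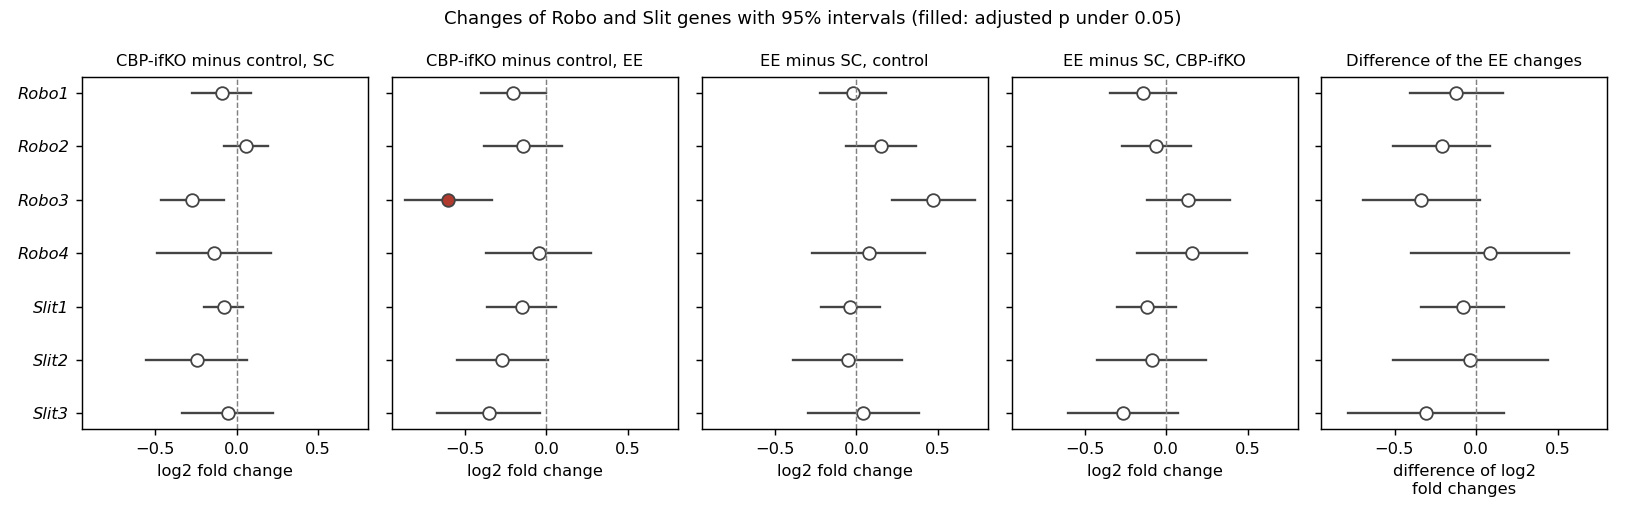
Log2 fold changes of the 7 genes from edgeR with 95% intervals, for both genotype comparisons, both housing comparisons and the difference between the housing changes, with filled points where the adjusted p was under 0.05. The only filled point is Robo3 between genotypes under EE, at -0.60, and its interval in control mice between housings, from 0.22 to 0.72, lies above 0.

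As a group, the members leaned below 0 between genotypes. All 7 had a log2 fold change below 0 under EE, where 47.0% of all genes did, and 6 of 7 in SC, where 50.3% did. The median of the members was -0.20 under EE and -0.092 in SC, beside 0.014 and -0.0019 over all genes. In control mice the housing changes were below 0 in 3 of 7 members with a median of 0.043, where 49.6% of genes were below 0, and in CBP-ifKOs in 5 of 7 with a median of -0.089, where 50.7% were. Robo1, Robo3 and Slit3 had an unadjusted p under 0.05 between genotypes under EE, as did 19.6% of all genes. Without control EE replicate 1, 6 of 7 members were below 0 between genotypes under EE, with a median of -0.27, and 2 of 7 between housings in control mice, with a median of 0.050.

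Robo3 was then set against each of its relatives within the same mouse, which takes library size out of the comparison. Per kilobase, the ratio of Robo3 to Robo2 was 0.803, 0.770 and 0.883 in control SC mice and 1.05, 0.953 and 1.07 in control EE mice. In CBP-ifKOs it was 0.739, 0.609 and 0.600 in SC and 0.686, 0.762 and 0.772 under EE. Both CBP-ifKO groups lay below the control EE mice without overlap. The log2 ratio was higher in control EE than in control SC mice by 0.32, and lower in CBP-ifKO EE than in control EE mice, with a difference of -0.47. Between genotypes in SC the difference was -0.34. Each had an exact two-sided permutation p of 0.1, the smallest possible, and 0.3 after adjustment over the 15 ratio tests, which were chosen after the values were seen. For Robo1 the housing difference in control mice was 0.49 and the genotype difference under EE -0.42, with the same p-values, and in SC the genotype difference was -0.19 (exact permutation p = 0.3). For Robo4, whose counts are low, they were 0.41 and -0.59, each with p = 0.2 in the exact permutation test and 0.3 adjusted, and -0.11 between genotypes in SC (exact permutation p = 0.6). Between housings in CBP-ifKOs the differences were 0.27, 0.19 and -0.065 for the ratios to Robo1, Robo2 and Robo4, with exact permutation p-values of 0.2, 0.2 and 0.9. The interaction was -0.13 for the ratio to Robo2, -0.23 for Robo1 and -0.48 for Robo4, with exact permutation p-values of 0.52, 0.515 and 0.2.

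**Figure D4:**
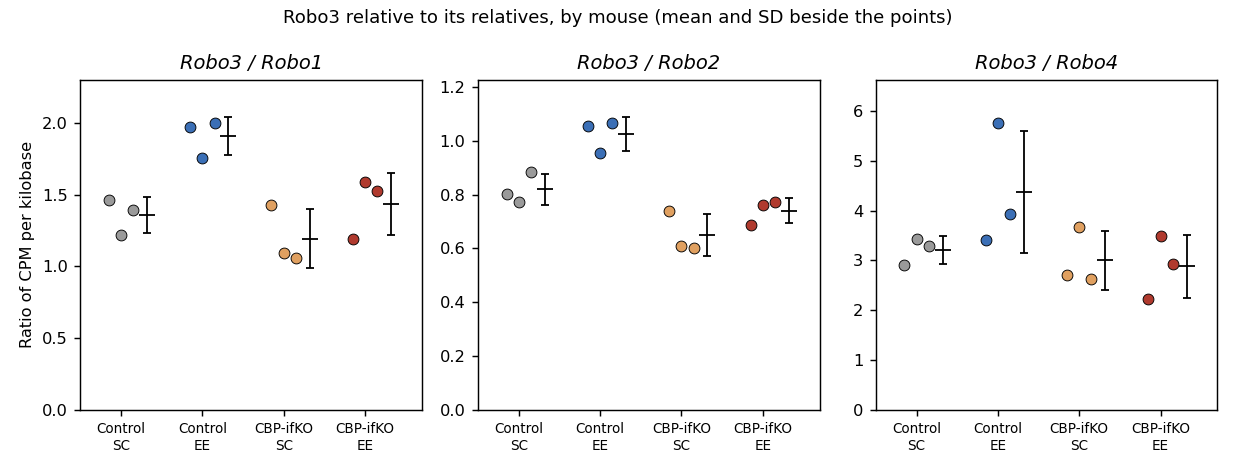
Ratio of Robo3 to Robo1, Robo2 and Robo4 in CPM per kilobase, with 1 point per mouse and the mean and SD of 3 mice beside them, on axes that start at 0. The ratio to Robo2 was between 0.953 and 1.07 in control EE mice and at most 0.883 in the other 9 mice.

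Of 55 other genes of the pathway, listed by role, 53 were tested. Averaged over housing, 18 of the 53 fell in CBP-ifKOs, where 16.9% of all genes passed in either direction, with a median log2 fold change over the 53 of -0.063 beside 0.0029 over all genes. In SC mice 6 passed, beside 5.52% of all genes, and under EE 5, beside 4.57%, all lower, and 3 under EE without control EE replicate 1. None passed in the housing comparisons or the interaction in edgeR, where 4 had an unadjusted p under 0.05 between housings in control mice, beside 4.21% of all genes, and 3 in CBP-ifKOs, beside 8.59%. Among the ligands, Nell2, the ligand of Robo3, fell by 0.19 on the log2 scale averaged over housing (adjusted p = 0.00237 by edgeR). Its levels were high, at 832 ± 32.4 CPM in control SC mice and 745 ± 25.4 CPM in CBP-ifKO SC mice (SD, n = 3). Under EE they were 907 ± 40.0 CPM in control mice and 777 ± 42.6 CPM in CBP-ifKOs. Ntn1, which encodes netrin-1, fell by 0.26 on the log2 scale averaged over housing (adjusted p = 0.0217 by edgeR). Its means were 10.3 CPM in control and 7.78 CPM in CBP-ifKO SC mice, and 9.03 against 8.24 CPM under EE. Neither Nell2 nor Ntn1 passed in SC or under EE taken alone. Under EE in control mice Nell2 had a log2 fold change of 0.12 (adjusted p = 0.999 by edgeR).

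Of 18 receptors and co-receptors, 6 fell averaged over housing, the comparison in which 16.9% of all genes passed. They were the netrin receptor Unc5a, with a log2 fold change of -0.33, the heparan sulfate proteoglycans Sdc3 at -0.22 and Gpc1 at -0.25, Plxna1 at -0.20, and Flrt1 and Flrt2, members of a family of adhesion proteins that can associate with Robo1, at -0.34 and -0.18. Dcc, the partner of Robo3, was close to the threshold, at -0.16 (adjusted p = 0.0564 by edgeR). It was at 44.2 ± 4.47 CPM in control SC and 42.9 ± 2.59 CPM in CBP-ifKO SC mice, a log2 fold change of -0.045, and at 45.7 ± 1.98 CPM in control EE and 37.6 ± 2.82 CPM in CBP-ifKO EE mice (SD, n = 3), a log2 fold change of -0.27 (adjusted p = 0.0570 by edgeR). Of 5 enzymes of heparan sulfate synthesis, 3 fell averaged over housing, again beside 16.9% of all genes. Ext1, Hs2st1 and Ndst1 fell by 0.19, 0.15 and 0.18 on the log2 scale, while Ext2 was at 0.11 (adjusted p = 0.0851 by edgeR).

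Of 18 intracellular effectors, 5 fell averaged over housing, again beside 16.9% of all genes. Cap1 and Cap2, which bind actin monomers, were at -0.26 and -0.22, the adaptor Nck2 at -0.27, the kinase Pak1 at -0.14 and Srgap3 at -0.14. The srGAP proteins link Robo receptors to the actin cytoskeleton, and the other 2, Srgap1 and Srgap2, were at -0.036 and -0.028 (adjusted p = 0.751 and 0.734 by edgeR). Of 5 genes listed for the transcription and translation of Robo genes 3 were tested, and 2 of them passed. Lhx2 and Lhx9, homeodomain factors known to control Robo3 in commissural neurons of the spinal cord, fell by 0.32 and 0.40 on the log2 scale (adjusted p = 9.43e-04 and 0.00120 by edgeR), Lhx2 in SC and Lhx9 in both housings taken alone. Msi1, which encodes an RNA-binding protein, was at 0.12 (adjusted p = 0.132 by edgeR).

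The annotated protein coding genes nearest to Robo3 are Robo4 and Hepacam on one side and Msantd2 and Esam on the other. None of these neighbours passed the threshold in any comparison, and their log2 fold changes under EE in control mice were 0.074 for Robo4, 0.028 for Hepacam, -0.044 for Msantd2 and 0.0074 for Esam. The 5 genes whose log2 CPM was most like that of Robo3 over the 12 libraries were Inf2 (Pearson r = 0.935), Plekha2 (0.932), Mfsd4a (0.915), Unc13b (0.915) and Fbxo32 (0.907). Each of these 5 had its highest group mean in control EE mice. Inf2, for example, was at 109 CPM in control SC, 128 in control EE, 83.5 in CBP-ifKO SC and 91.2 CPM in CBP-ifKO EE mice. Among the members, Robo2 was the most like Robo3 (r = 0.613, above 92.7% of the tested genes), followed by Robo1 (0.414), Slit1 (0.325), Slit3 (0.313), Robo4 (0.271) and Slit2 (0.182). These values describe 12 libraries that share the group differences, and no test was made of them.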

How the data were processed

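RNA of the hippocampus was sequenced from 12 mice, with groups taken from the sample titles. The authors aligned single-end reads with STAR 2.6.1 to mm10 (GRCm38), kept well mapped reads and counted them on exons with Rsubread. They deposited these raw counts in 1 column per mouse, named as merged. Whether 2 different runs were merged for the CBP-ifKOs could not be told. Whether counting used strand is not given in the sources used here. Trim Galore 0.6.4, FastQC 0.11.8 and DESeq2 1.30.1 appear in the submitters' processing notes. The deposited gene length, from the authors' counting, is given in bases of merged exons and was used for levels per kilobase only.

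Counts of all genes were fitted with edgeR 4.0.16 in R 4.3.3 (filterByExpr, TMM, quasi-likelihood F test), with Benjamini-Hochberg adjustment over all genes tested at 0.05. Genotypes were compared in the 6 mice of a housing, and the other contrasts were fitted in all 12 mice with 1 coefficient per group. CPM were scaled by TMM factors, and log2 CPM used a prior count of 2. A floor of 3 counts was between 0.0801 and 0.112 CPM on the counts as deposited, which covers counting error only and was far below every member. Replicates are separate mice. Same-numbered mice did not deviate together in every pair. Alternatives were DESeq2 1.42.0, other size factors and filters, halved CBP-ifKO counts, a replicate block, other sets of mice and leaving out each mouse.

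The members and lists were chosen with earlier results of these data known. Named genes were the 7 members, Crebbp, pathway genes that passed in a test together with Nell2, Dcc, Ntn1, Srgap1, Srgap2 and Srgap3, the 5 genes most correlated with Robo3, its 2 nearest coding neighbours on each side, and markers by list. The result of 1 further pathway gene is not reported here. Positions and UTRs come from GENCODE M21, and promoter and microRNA sequences from RefSeq (GRCm38.p6).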

Additional observations from a re-analysis of the deposited data

How the results depend on the processing

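The only member that passed in the fits as reported was Robo3, between genotypes under EE and averaged over housing, and it kept both calls under DESeq2, DESeq2's size factors, both other filters, halved CBP-ifKO counts, the replicate block and, under EE, all 12 mice in the fit. Leaving out 1 mouse, the number of members that passed ranged from 0 to 1 between genotypes in SC, 0 to 1 under EE, 1 to 2 averaged over housing and 0 to 1 for the housing change averaged over genotype. Without a filter on low counts, 1 member passed in SC (Robo3), 3 under EE (Robo3, Slit2 and Slit3), 5 averaged over housing (all but Robo2 and Robo4), and 1 each (Robo3) for EE in control mice, for EE averaged over genotype and in the joint test; the log2 fold change of Robo3 in control mice was 0.47 there. That setting also raised the calls over all genes from 968 to 1512 in SC, 805 to 1677 under EE, 0 to 145, 2 to 247 and 30 to 334 for EE in control mice, in CBP-ifKOs and averaged, 0 to 110 for the interaction and 13 to 409 in the joint test. DESeq2 called 1 member, Robo3, for EE averaged over genotype and 1 in the joint test, and over all genes 1251 under EE, 15, 51 and 155 for the 3 housing contrasts and 92 in the joint test. With other sets of mice in the fit, 1293 genes passed between genotypes under EE with all 12 mice, and 1 and 21 for EE in control mice and in CBP-ifKOs with 6 mice each. With halved counts 0 genes passed for EE in CBP-ifKOs. The causes of these differences were not tested.

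Mice were treated as unpaired by a rule that asked for a correlation over 0.1 in every same-numbered pair, which no combination of groups met. Between control SC and control EE mice, however, same-numbered pairs correlated at 0.034 to 0.30 (mean 0.18). Between control EE and CBP-ifKO EE mice they did at 0.034 to 0.12 (mean 0.091). The means of the other combinations were between -0.023 and 0.043. A shared effect of replicate number was not tested beyond the replicate block. With the replicate block, 2 members passed under EE (Robo3 and Slit3) and 2 averaged over housing (Robo1 and Robo3), and over all genes 17 and 48 passed for EE in CBP-ifKOs and averaged and 22 in the joint test.

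Log2 fold changes near 0 changed sign when 1 mouse was left out. Between genotypes these were Robo1, Robo4 and Slit3 in SC (-0.17 to 0.0068, -0.32 to 0.019 and -0.16 to 0.16), Robo4 under EE (-0.20 to 0.070) and Robo2 averaged over housing (-0.098 to 0.0069). For EE in control mice they were Robo1 (-0.14 to 0.078), Robo4 (-0.044 to 0.22), Slit1 (-0.15 to 0.050), Slit2 (-0.22 to 0.063) and Slit3 (-0.14 to 0.26), and in CBP-ifKOs Robo2 (-0.16 to 0.049) and Slit2 (-0.20 to 0.12). Averaged over genotype they were Robo2 (-0.0089 to 0.10) and Slit2 (-0.15 to 0.036), and for the interaction Robo4 (-0.074 to 0.26), Slit1 (-0.17 to 0.028) and Slit2 (-0.15 to 0.18). Robo3 kept its sign in all of these fits. With 3 mice a group, changes of the size of Robo3's could be missed.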
